A study of Mus musculus with 4 samples.

Results

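The 5 genes described here, Gfap, Vim, Aqp4, Gjb6 and Etnppl, encode filament, water channel, gap junction and lipid-metabolism proteins of astrocytes, and were found by symbol among the 5282 genes of the deposited table. All 5 had a row. One group of mice, called SmoM2 here, carried Pdgfra-creER and SmoM2, a constitutively active form of the hedgehog signal transducer Smoothened, and the mice they were compared with are labelled WT. The labels do not state whether the WT mice carried the recombinase. Each group had 2 samples of dissected corpus callosum and cortex at postnatal day 15, and both groups received tamoxifen from postnatal day 5 to 7. Pdgfra is a gene of oligodendrocyte precursors and of fibroblasts, so the recombinase is driven in those cells and not by an astrocyte promoter. Nothing in the labels states that the samples came from separate animals, so the spread between them may be technical.

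The table was limited by its authors to genes with an unadjusted p of at most 0.05 between these groups, and the 5 genes were picked from it with their differences known. Their differences are therefore given as a description and no test of them is offered. The adjusted p-values below are those of the authors' deposited table. "Rose" and "fell" are used for other genes whose adjusted p in it was at most 0.05. By that rule all 5 genes were past the threshold, 3 higher and 2 lower, as were 37.3% of all listed genes, 21.3% higher and 16.0% lower. Of all listed genes, 53.2% had a log2 fold change above 0, and the median was 0.23. Because genes with a larger unadjusted p are missing, medians over listed genes mainly reflect how many point each way. The level of a gene is a value corrected for the length of the gene and the size of the library; the sources do not say if TPM or FPKM was used. Depth is unknown because no read counts are in the table.

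Astrocytes take up glutamate and potassium, cover blood vessels with endfeet and are coupled to each other by gap junctions. Gfap and Vim encode intermediate filament proteins of the same type, with Vim prominent in immature and Gfap in mature or reactive astrocytes. Aqp4 encodes the water channel of the endfoot membrane, Gjb6 encodes connexin 30, a gap junction protein of astrocytes, and Etnppl encodes ethanolamine-phosphate phospho-lyase, an enzyme that breaks down phosphoethanolamine. Vim is also a gene of fibroblasts, endothelial cells and radial glia, and Gfap, Vim and Aqp4 are also expressed by ependymal cells.

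The promoter windows of the filament genes and of Etnppl are shown because the filament genes were higher together and Etnppl had by far the largest difference of the 5. They are RefSeq windows in GRCm38.p6, 250 bases before to 50 bases after an annotated start, in the direction of the gene. The Gfap window is chr11:102897151-102897450 on the minus strand, the Vim window chr2:13574061-13574360 on the plus strand, and the Etnppl window, the second of 2 annotated starts, chr3:130617325-130617624 on the plus strand. Capitals mark the STAT letters TTCNNNGAA in Gfap and the NFI core letters TTGGCA in Etnppl.
Gfap: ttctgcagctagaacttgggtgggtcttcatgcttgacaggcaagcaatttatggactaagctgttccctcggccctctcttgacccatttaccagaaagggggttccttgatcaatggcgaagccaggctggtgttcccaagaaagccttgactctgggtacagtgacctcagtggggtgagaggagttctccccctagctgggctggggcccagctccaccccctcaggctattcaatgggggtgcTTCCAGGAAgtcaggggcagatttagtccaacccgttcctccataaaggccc
Vim: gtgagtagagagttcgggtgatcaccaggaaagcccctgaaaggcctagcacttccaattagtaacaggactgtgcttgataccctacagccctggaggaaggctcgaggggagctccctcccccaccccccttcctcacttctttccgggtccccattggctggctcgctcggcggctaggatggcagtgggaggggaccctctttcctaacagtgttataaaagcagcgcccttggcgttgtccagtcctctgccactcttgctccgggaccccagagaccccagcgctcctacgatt
Etnppl: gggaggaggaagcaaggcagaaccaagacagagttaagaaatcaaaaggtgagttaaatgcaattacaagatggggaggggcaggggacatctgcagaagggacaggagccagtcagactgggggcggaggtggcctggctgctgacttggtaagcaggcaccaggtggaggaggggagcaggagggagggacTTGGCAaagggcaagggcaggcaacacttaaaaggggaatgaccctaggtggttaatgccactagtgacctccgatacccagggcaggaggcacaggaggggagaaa
Both strands were searched for GACCACCCA, the letters bound by GLI factors, for TTCNNNGAA, for the full NFI palindrome and for the NFI core TTGGCA, which can overlap the palindrome. The Gfap match begins 2 bases before the annotated start, and 8.30% of 32851 promoter windows of the same length hold those letters. The Etnppl match begins 57 bases before its start, and 14.1% of windows hold TTGGCA. The window of the other Etnppl start, chr3:130617198-130617497, holds none of the letters searched; the printed one is shown because it holds the match. The GLI letters were in 0.253% of all windows and in none of the windows of Gfap, Vim, Gjb6 and Etnppl, and the full NFI palindrome was in 0.0365% of all windows and in none of theirs. The Vim and Gjb6 windows held none of the letters searched. No window of Aqp4 was searched. A match of letters is not evidence of binding.

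Etnppl was close to 0 in SmoM2. Its level was 0.25 and 0.15 in SmoM2, against 5.02 and 5.28 in WT. The groups were far apart, at 0.200 ± 0.0707 in SmoM2 against 5.15 ± 0.184 in WT (SD, n = 2 each). The WT samples were close, while the SmoM2 samples, both near 0, differed 1.67-fold. The ratio of the mean levels was 25.8-fold lower in SmoM2, with SmoM2 levels so low that their second decimal matters to it. Here and below, because whole tissue was sequenced, fewer cells of a type and less RNA per cell cannot be told apart. In the authors' deposited table the log2 fold change of Etnppl (ENSMUSG00000019232) was -4.53 (adjusted p = 2.84e-39), the lowest of the 5. By size of fold change it was number 139 of 5282 listed genes. The log2(level + 1) scale understates both the changes and the spread of low genes. On that scale the difference was -2.36 ± 0.22 (SE, limma). It ran from -2.42 to -2.30 with any 1 of the 4 libraries left out. Etnppl lies on chromosome 3 from 130617448 to 130637521 (GRCm38, plus strand), and none of the 4 other protein-coding genes annotated within 500 kb had a row.

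The other genes of phosphoethanolamine and phospholipid metabolism had much smaller differences. Of 20 genes in that list, 5 had a row, Etnppl included. Chpt1, which encodes the choline phosphotransferase of phosphatidylcholine synthesis, fell, its log2 fold change being -0.47 in the authors' deposited table and the log2 ratio of its mean levels -0.11, with levels of 12.03 and 12.70 in SmoM2 against 12.76 and 13.87 in WT. Etnk1, the ethanolamine kinase gene that makes phosphoethanolamine, read 57.83 and 60.44 in SmoM2, against 61.50 and 68.78 in WT, and its adjusted p was 0.371 in the authors' deposited table. Cept1, the choline and ethanolamine phosphotransferase gene, had log2 fold change -0.32 and adjusted p 0.185 in the authors' deposited table. Fabp7, the brain fatty acid binding protein gene, is the list's member that rose, and it is described with the radial glia genes. The list's median log2 fold change was -0.32, beside 0.23 over all listed genes.

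**Figure D1:**
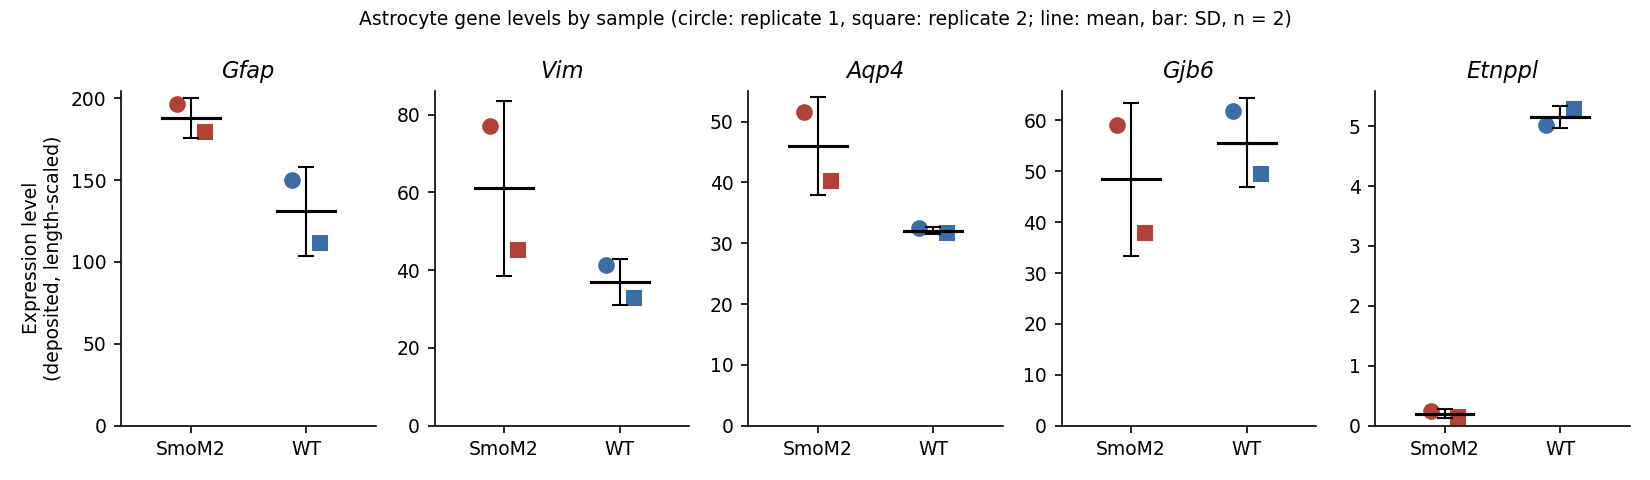
Deposited expression level of each gene in each sample, SmoM2 at the left and WT at the right of each panel, on linear axes from 0; circles are replicate 1, squares replicate 2, and lines and bars the mean and SD of 2 samples. Etnppl sits at 0.25 and 0.15 in SmoM2 against 5.02 and 5.28 in WT, Gfap, Vim and Aqp4 are higher in both SmoM2 samples, and the groups of Gjb6 overlap.

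The filament genes were both higher in SmoM2. Gfap had levels of 196.41 and 179.20 in SmoM2, against 150.01 and 111.75 in WT. Both SmoM2 samples were above both WT samples, and the WT samples were further apart than the SmoM2 samples. The mean level of Gfap was 188 ± 12.2 in SmoM2 against 131 ± 27.1 in WT (SD, n = 2 each), a 1.43-fold ratio. Vim had levels of 77.01 and 45.17 in SmoM2, against 41.21 and 32.85 in WT. The groups did not overlap, but SmoM2 replicate 2 lay nearer to WT replicate 1 than to SmoM2 replicate 1. The mean level of Vim was 61.1 ± 22.5 in SmoM2 against 37.0 ± 5.91 in WT, a 1.65-fold ratio. The authors' deposited table gives log2 fold changes of 0.44 for Gfap (ENSMUSG00000020932) and 0.52 for Vim (ENSMUSG00000026728), with adjusted p-values of 8.25e-04 and 3.85e-04.

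The size of both differences depended on single libraries. On the log2(level + 1) scale Gfap differed by 0.53 ± 0.15 (SE, limma), which was 0.32 without WT replicate 2. Vim differed by 0.67 ± 0.25, although its pooled within-group SD on that scale was 0.41. Its difference was 0.29 without SmoM2 replicate 1 and 1.05 without SmoM2 replicate 2. The level of Vim relative to Gfap was 0.392 and 0.252 in SmoM2, against 0.275 and 0.294 in WT, so the pair's ratio overlapped between groups. Gfap lies on chromosome 11 from 102887336 to 102900912 (minus strand), where a long non-coding gene on the other strand, Gm26668, overlaps it. The sources used here do not state whether reads were counted by strand, so reads of the 2 genes cannot be told apart. Vim lies on chromosome 2 from 13573927 to 13582826 (plus strand), and no gene annotated in GENCODE M21 overlaps it.

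Most other intermediate filament genes had no row, and of those with a row only Krt8 and Krt18, at low levels, had a lower mean in SmoM2. Of 17 filament genes and partners in the list, 7 had a row, 3 of them were past the threshold and higher, and none was past it and lower. Lmnb1, which encodes the nuclear lamin B1, rose beside Gfap and Vim, at 13.64 and 14.80 in SmoM2 against 10.06 and 9.19 in WT. Its adjusted p in the authors' deposited table was 0.0418. Nes, the nestin gene of neural progenitors, read 6.14 and 3.91 in SmoM2, against 3.01 and 3.78 in WT, with adjusted p = 0.0568 in the authors' deposited table. The muscle filament gene Des was at 1.58 and 1.68 in SmoM2 and at 0.75 and 1.03 in WT, with adjusted p = 0.128 in the authors' deposited table. The keratin genes Krt8 and Krt18 were below 2 in every sample, and Krt8 is listed at 0 in SmoM2 replicate 1. The neurofilament genes Nefl, Nefm and Nefh and the partner genes Synm and Plec had no row and were not analysed here.

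Aqp4 was higher in SmoM2. Its level was 51.63 and 40.27 in SmoM2, against 32.44 and 31.61 in WT. Both SmoM2 samples were above both WT samples, which were nearly equal. The mean level of Aqp4 was 46.0 ± 8.03 in SmoM2 against 32.0 ± 0.587 in WT (SD, n = 2 each), a 1.43-fold ratio. In the authors' deposited table the log2 fold change of Aqp4 (ENSMUSG00000024411) was 0.46 (adjusted p = 0.00130). On the log2(level + 1) scale it differed by 0.50 ± 0.14 (SE, limma), which was 0.32 without SmoM2 replicate 1. In GRCm38 Aqp4 lies on chromosome 18 from 15389496 to 15410982 (minus strand) and is overlapped by 1 annotated antisense gene, from which its reads cannot be told apart unless strand was used.

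Most genes of water channels and endfeet with a row did not pass the threshold. Of 17 genes of water channels and endfeet, 6 had a row, 2 were past the threshold and higher, Aqp4 and Agrn, and none was past it and lower. Agrn encodes agrin, a basement membrane proteoglycan, and read 87.99 and 91.13 in SmoM2 against 66.77 and 73.50 in WT, and the authors' deposited table puts its log2 fold change at 0.48. Kcnj10, the gene of the astrocyte potassium channel Kir4.1, read 56.86 and 49.81 in SmoM2, against 58.33 and 58.04 in WT, with adjusted p = 0.532 in the authors' deposited table. Dmd, the dystrophin gene, had adjusted p = 0.524, and the authors' deposited table puts its log2 fold change at -0.24, although the ratio of its mean levels was 0.0010 on the log2 scale. Aqp1, a water channel gene of choroid plexus, read 2.26 and 2.48 in SmoM2, against 3.47 and 3.80 in WT, with adjusted p = 0.151 in the authors' deposited table. Over the 6 genes the log2 fold changes had a median of 0.053.

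Gjb6 gave different answers by its levels and by the authors' fold change. Its level was 59.05 and 37.78 in SmoM2, against 61.77 and 49.42 in WT. The groups overlapped, since SmoM2 replicate 1 lay between the WT samples. The mean level of Gjb6 was 48.4 ± 15.04 in SmoM2 against 55.6 ± 8.73 in WT (SD, n = 2 each), which on the log2 scale is a ratio of -0.20. In the authors' deposited table, however, the log2 fold change of Gjb6 (ENSMUSG00000040055) was -1.03 (adjusted p = 1.66e-15). The gap between the 2 values was -0.83, whereas over the 4818 listed genes with a mean level of 1 or more and no group mean of 0 its median was -0.076 and its 5th and 95th percentiles were -0.27 and 0.095. A gap at least that large in either direction occurred in 29 of these genes, 0.602%. For Gfap, Vim, Aqp4 and Etnppl the gap was -0.079, -0.20, -0.059 and 0.16.

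**Figure D2:**
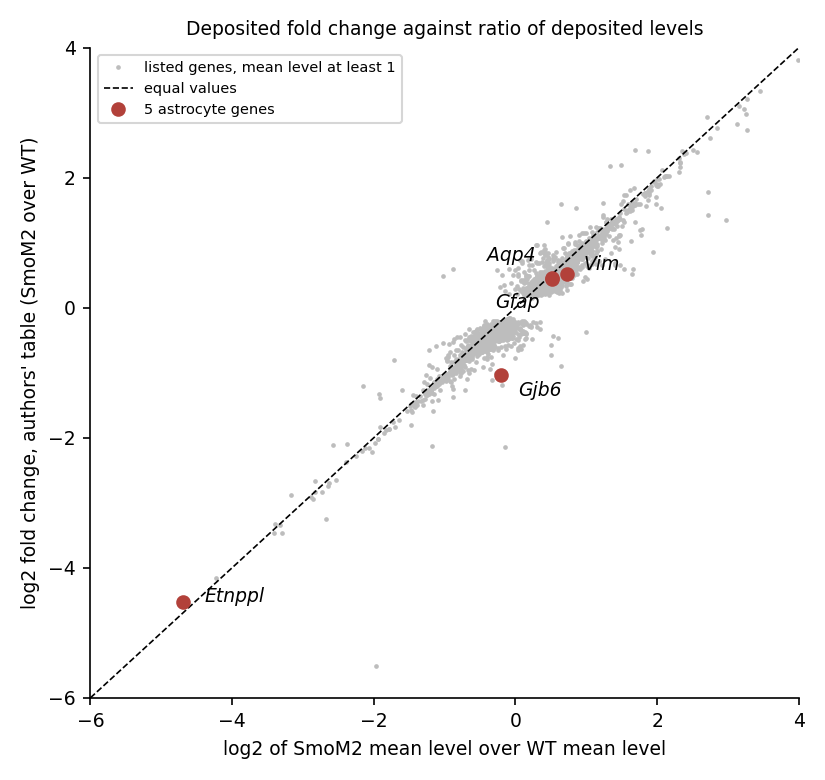
Log2 fold change of the authors' deposited table (vertical) against the log2 ratio of the SmoM2 mean level over the WT mean level (horizontal) for 4818 listed genes, with the 5 astrocyte genes in red; 10 genes lie outside the axes. Gjb6 lies 0.83 below the line of equal values and the other 4 have gaps between -0.20 and 0.16.

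The levels do not settle the direction of Gjb6. On the log2(level + 1) scale the difference was -0.22 ± 0.22 (SE, limma), which was -0.54 without SmoM2 replicate 1, -0.38 without WT replicate 2, -0.063 without WT replicate 1 and 0.09 without SmoM2 replicate 2. Among all 1968 genes past the authors' threshold, 176 (8.94%) had overlapping groups. GENCODE M21 places Gjb6 on chromosome 14 from 57123303 to 57133611 (minus strand), with 4 transcripts, of which the protein-coding ones are 887 and 2105 bases long. Levels per transcript were not analysed here, and the cause of the gap was not tested.

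**Figure D3:**
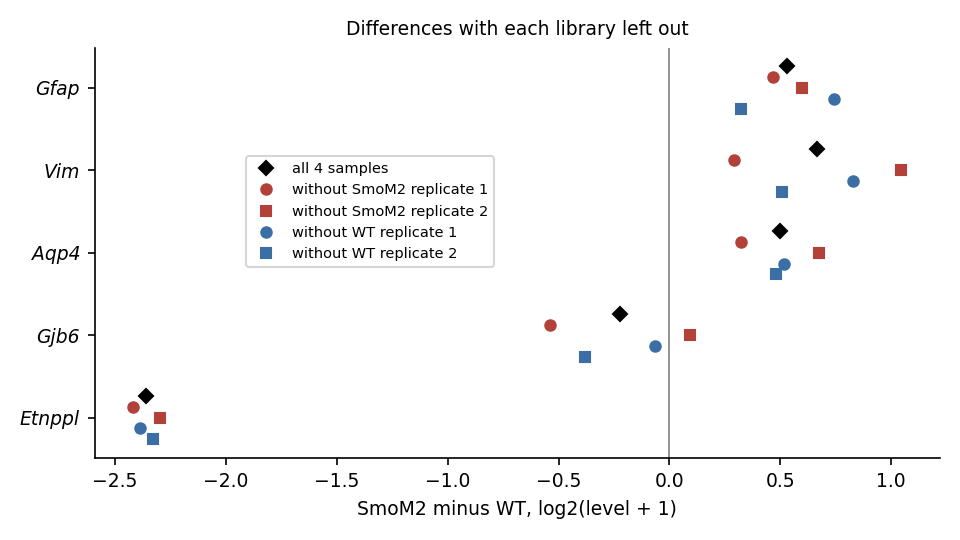
SmoM2 minus WT difference on the log2(level + 1) scale for each gene with all 4 samples (diamonds) and with each library left out (red circle and square, SmoM2 replicate 1 and 2; blue circle and square, WT replicate 1 and 2). Gfap, Vim and Aqp4 remain above 0 and Etnppl below 0 with each of the 4 libraries left out, and Gjb6 crosses 0 without SmoM2 replicate 2.

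Among the connexin and pannexin genes, 9 of 13 had a row, 2 rose, and 3 were past the threshold and lower, Gjb6 included. Gjc3, a connexin gene of oligodendrocyte lineage cells, fell and read 8.91 and 9.57 in SmoM2 against 14.69 and 14.87 in WT. Gja4, a connexin gene of arterial endothelium, rose and read 10.17 and 5.60 in SmoM2 against 3.66 and 5.24 in WT, and Panx2, a pannexin gene, rose and read 99.32 and 74.21 in SmoM2 against 68.32 and 63.39 in WT. Gjb2, which encodes connexin 26 and is expressed by astrocytes and meningeal cells, lies 18.6 kb from Gjb6 and read 7.72 and 5.75 in SmoM2, against 5.31 and 2.86 in WT. In the authors' deposited table its log2 fold change was 0.63 (adjusted p = 0.0924), which did not pass. Gja1, the gene of connexin 43 and the other main astrocyte connexin, had no row and was not analysed here.

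The 5 genes differed in order as well as in level. Levels scaled for gene length placed Gfap highest and Etnppl lowest in all 4 samples. Gjb6 was in place 2 in both WT samples and in places 3 and 4 in the SmoM2 samples, while Vim was in place 2 in both SmoM2 samples and in place 3 in both WT samples. Within each SmoM2 sample Vim was above Gjb6 and Aqp4, while the order of Gjb6 and Aqp4 differed between the SmoM2 samples. The level of Vim over that of Gjb6 was 1.30 and 1.20 in SmoM2, against 0.667 and 0.665 in WT. Taken across the SmoM2 samples, the levels of Vim, Gjb6 and Aqp4 overlapped. In WT, Gjb6 was above Vim and Vim above Aqp4 in both samples. Across the 4 samples the profiles of Gfap and Aqp4 were the closest pair among the 5, with a Euclidean distance of 0.315 between centred log2(level + 1) values, against 2.18 or more between Etnppl and any other gene of the 5.

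Among listed genes whose mean level was 5 or more, the profile nearest to Gfap over the 4 samples was that of Slc14a1, a urea transporter gene, at a distance of 0.00910. Slc14a1 read 8.84 and 7.99 in SmoM2, against 6.52 and 4.58 in WT. Ctc1 and Srf came next for Gfap, at 0.0448 and 0.0481. For Vim they were Gdpd2, Bmp7 and Man2c1, at 0.110, 0.232 and 0.237, and for Aqp4 Tagap1, Gm13889 and Steap3, at 0.0426, 0.0526 and 0.0570. For Gjb6 they were Ccl25, Galnt13 and Cxcl12, at 0.213, 0.227 and 0.231. Etnppl was nearest to the long non-coding gene Gm49980, at 0.102, with levels of 4.43 and 3.70 in SmoM2 against 25.62 and 24.68 in WT. Gm42429 and Mal, a myelin proteolipid gene, followed at 0.490 and 0.522. With 4 samples such distances mostly rank the size of the group difference on the log2(level + 1) scale. That scale shrinks the difference of Etnppl, whose mean level of 2.675 is below the minimum of 5 set for its neighbours. In the authors' deposited table its log2 fold change was -4.53, against -2.69 for Gm49980, -2.84 for Gm42429 and -2.03 for Mal.

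Genes that define astrocytes did not move as a block. Of 34 astrocyte identity genes, 11 had a row, 1 rose, 2 fell and 8 did not pass, with a median log2 fold change of -0.22, beside 0.23 over all listed genes. Slc1a2, the main glutamate transporter gene of astrocytes, fell and read 343.36 and 271.05 in SmoM2 against 355.07 and 417.44 in WT. Glul, the glutamine synthetase gene, fell and read 714.28 and 639.89 in SmoM2 against 816.29 and 761.02 in WT. Hes5, a Notch effector gene that is also in the radial glia list, rose and read 45.69 and 39.40 in SmoM2 against 25.40 and 21.48 in WT. In the authors' deposited table Aldoc, S100b, Cst3, Sparcl1, F3 and Ttyh1 had log2 fold changes between -0.31 and -0.15 and did not pass, and Slc7a10 and Mt3 had 0.37 and 0.22 without passing. The levels of Ttyh1 point the other way from its fold change, at 432.10 and 448.26 in SmoM2 against 414.52 and 422.97 in WT, so by levels 4 of the 11 were higher. Aldh1l1, Slc1a3, Gja1, Sox9, Apoe and 18 others had no row and were not analysed here. The summed level of the 11 was 6236 and 6305 in SmoM2, against 7170 and 6251 in WT, and overlapped between groups.

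Genes of radial glia and neural stem cells, some of which young astrocytes also express, included several that rose. Of 16, 11 had a row, 5 rose, 1 fell and 5 did not pass. Deposited log2 fold changes of the 11 had a median of 0.45, beside 0.23 over all listed genes. Fabp7 rose and read 314.03 and 193.27 in SmoM2 against 111.06 and 116.00 in WT, and the authors' deposited table puts its log2 fold change at 1.10. Like Gfap, Vim and Aqp4, it was highest in SmoM2 replicate 1. Tnc, which encodes the matrix protein tenascin C, read 6.31 and 5.68 in SmoM2 against 3.30 and 3.33 in WT, and Lrig1, which encodes a growth factor receptor antagonist, read 19.77 and 18.47 against 11.08 and 12.15 in WT. Ptprz1, a receptor phosphatase gene of glial precursors, and Hes5 were the other two that rose. Prom1, the prominin 1 gene, fell and read 5.27 in both SmoM2 samples against 9.77 and 10.68 in WT.

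Genes of reactive astrocytes, a state in which Gfap and Vim are high, were mostly outside the table. Of 24, 4 had a row, none rose and 1 fell. Ptgs2, the cyclooxygenase 2 gene, which neurons also express, fell and read 1.07 and 1.55 in SmoM2 against 2.47 and 2.53 in WT. Timp1, a metalloproteinase inhibitor gene, read 1.52 and 2.79 in SmoM2, against 0.58 and 0.15 in WT, and the authors' deposited table puts its log2 fold change at 2.40 (adjusted p = 0.0744). Emp1 and Fkbp5 had adjusted p-values of 0.252 and 0.129 in the authors' deposited table. Lcn2, Serpina3n, Cd44, Osmr, C3 and Stat3 had no row and were not analysed here.

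**Figure D4:**
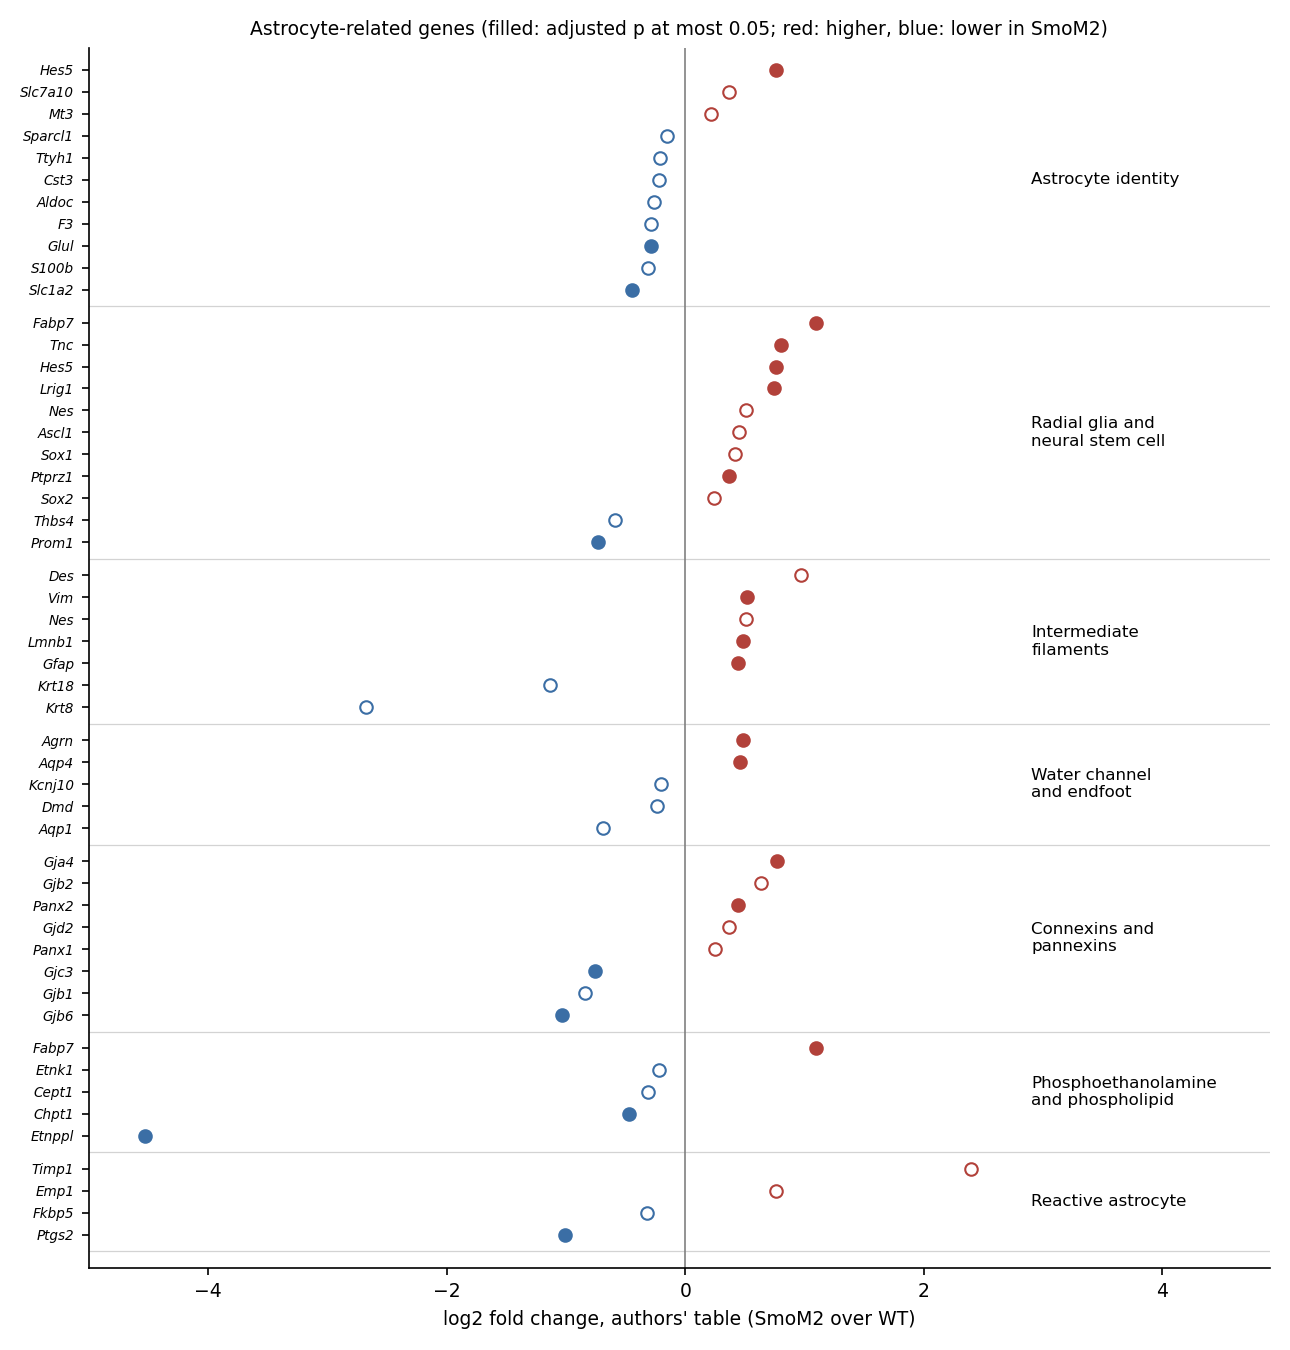
Log2 fold change in the authors' deposited table (SmoM2 over WT) of genes with a row in 7 astrocyte-related lists, without those not reported here; filled points have adjusted p at or below 0.05, red is higher and blue lower in SmoM2. Etnppl at -4.53 stands apart to the left of all other points. Of the genes with a row, 9 of 11 radial glia genes and 3 of 11 astrocyte identity genes lie to the right of 0, beside 53.2% of all listed genes.

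Markers of fibroblasts and endothelial cells, which express Vim, differed between the same libraries. Genes of ependymal cells, which express Gfap, Vim and Aqp4, were mostly outside the table. Of 13 leptomeningeal fibroblast genes, 12 had a row, and each of the 12 rose. Their summed level was 1897 to 1946 in SmoM2 and 426 to 1053 in WT, most of it from Ptgds, a prostaglandin synthase gene, and without Ptgds it was 256 and 218 in SmoM2 against 120 and 113 in WT. Col1a1, a fibrillar collagen gene, read 14.36 and 7.42 in SmoM2 against 2.34 and 2.03 in WT. Of the 12, 9 were higher in SmoM2 replicate 1 than in SmoM2 replicate 2, and 3 were lower, Dcn, Aldh1a2 and Ptgds. All 5 astrocyte genes were also higher in SmoM2 replicate 1 than in SmoM2 replicate 2. The share of all listed genes with that order is not given here, so neither count is read as a trait of these genes. The levels of all listed genes summed to 491481 in SmoM2 replicate 1 and 469062 in SmoM2 replicate 2. Of 17 endothelial and mural genes, 11 had a row, 6 rose and 2 fell, with a summed level of 304 to 406 in SmoM2 and 276 to 333 in WT. Of 10 ependymal genes 2 had a row and neither passed, with a summed level of 2.56 to 6.45 in SmoM2 and 8.53 to 12.2 in WT; Foxj1, which defines these cells, had no row. No gene with a row in these 3 lists was at 0 in any sample. The part of these cell types in the differences of Gfap, Vim and Aqp4 was not tested. All 15 mature oligodendrocyte genes of that list had a row and 14 fell, with a summed level of 3083 to 3479 in SmoM2 and 6051 to 6440 in WT; the part of that cell type in the differences of Etnppl and Gjb6 was not tested.

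**Figure D5:**
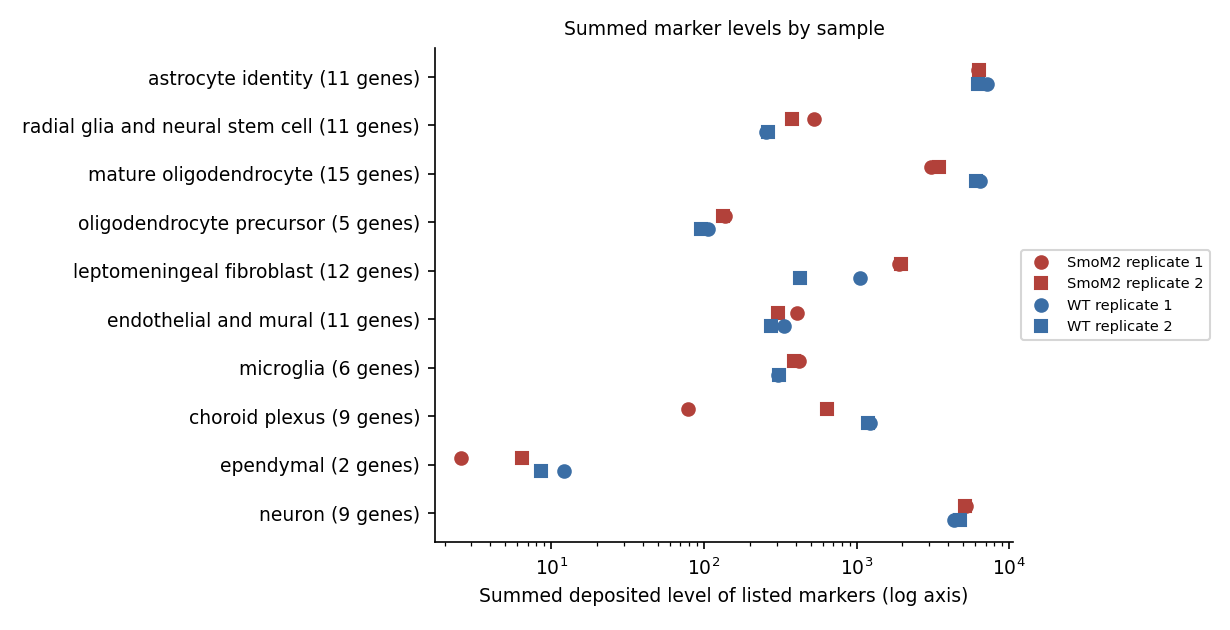
Summed deposited level of the markers with a row for each cell type and sample (log axis); red is SmoM2 and blue is WT, circles are replicate 1 and squares replicate 2. The astrocyte identity sums overlap between groups, at 6236 and 6305 in SmoM2 against 7170 and 6251 in WT, while the fibroblast sums are 1897 and 1946 in SmoM2 against 1053 and 426 in WT.

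Smo, the gene altered by design, was at 10.73 and 10.96 in SmoM2, against 7.12 and 5.75 in WT, higher in both SmoM2 samples. Its row was selected by the same contrast, so this is no check of the genotype. The listed genes summed to between 469062 and 491481 in SmoM2 and between 508519 and 512833 in WT. Groups did not overlap for 84.7% of all listed genes, 49.5% higher and 35.2% lower in SmoM2, a share set by the selection of the table, and for 4 of the 5 astrocyte genes, 3 higher and 1 lower. Of 10 choroid plexus genes 9 had a row and 6 fell, and the 9 summed to 78.5 and 637 in SmoM2 and to 1230 and 1195 in WT. Most of that sum was Ttr, at 71.24 and 618.04 in SmoM2 against 1202.66 and 1162.48 in WT. SmoM2 replicate 1 had the lowest sum.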

How the data were processed

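RNA of corpus callosum and cortex was sequenced from 1 ug of total RNA with Illumina TruSeq kits, per the labels' protocols. RSEM, DESeq2 and GRCm38.p6 are named per the submitters' processing notes, with no version or role. The authors' deposited table holds, for each sample, an expression signal (level) scaled for length and library size as judged from its values. It also holds the authors' deposited fold change (ratio, SmoM2 over WT), the log2 of that, and p-values with adjusted p-values. Columns were tied to samples by the series text.

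Levels were used as they stand. Means, SDs and ratios were computed for 2 samples a group, and limma 3.58.1 (R 4.3.3) gave differences and standard errors of log2(level + 1) over the 4845 genes whose mean level was 1 or more, with a mean-variance trend; the step was tested on simulated data. The standard errors are moderated, that is, drawn toward a variance learned from these selected genes. The pooled within-group SD of log2(level + 1) was 0.22 for Gfap, 0.41 for Vim, 0.18 for Aqp4, 0.35 for Gjb6 and 0.067 for Etnppl. With 2 samples a group an SE without moderation equals that SD, which exceeds the SE given for each gene except Etnppl. No p-value of the re-analysis is reported. As the table holds levels of selected genes, the design written for counts was not used. Symbols, positions and transcripts are from GENCODE M21, promoters from RefSeq.

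The 5 genes and the 15 gene lists were chosen with earlier results of these data known, and no set test was run. Ppap2b, an older symbol of Plpp3, was dropped from its list. Named were the 5 genes, Smo, the list members past the threshold whose fold changes were largest, members of highest level, astrocyte identity genes, and the 3 nearest profiles of each of the 5; further list members, among them Etnk1, Cept1, Nes, Des, Krt8, Krt18, Ptprz1, Kcnj10, Dmd, Aqp1, Gjb2, Timp1, Emp1 and Fkbp5, were named after their values were seen. Some list members are counted but not reported here by name. Alternatives were pseudocounts of 0.1 and 5, other filters and scalings, each library left out, a replicate block, the authors' fold change in place of levels, and an adjusted p of 0.01.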

Additional observations from a re-analysis of the deposited data

How the results depend on the processing

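With 2 samples a group, unknown depth and a table of selected genes, the differences are descriptions of these libraries. The count of 3 of the 5 astrocyte genes with a higher mean in SmoM2 stayed within 1.5 times under every alternative run; it was 4 without SmoM2 replicate 2, where Gjb6 reversed. The log2(level + 1) difference of Gjb6 was -0.22, ran from -0.54 to 0.09 with a library left out, and was 0.094 without SmoM2 replicate 2; in the authors' fold change it was -1.03. That of Etnppl kept its direction and depended on the scale: -2.36 at a pseudocount of 1, -4.15 at 0.1, -0.96 at 5, -2.56 with quantile normalization, -2.45 with equal medians and -4.53 in the authors' fold change; leaving out a library gave -2.42 to -2.30. Its mean level is below 5, so a minimum of 5 gave no value. Gfap ran from 0.32 to 0.74, Vim from 0.29 to 1.05 and Aqp4 from 0.32 to 0.67 with a library left out. At an adjusted p of 0.01, fewer genes passed in some of the 7 astrocyte-related lists. There 1 astrocyte identity gene was called lower instead of 2, and 1 phosphoethanolamine and phospholipid gene lower instead of 2. Of the connexin and pannexin genes, 1 was called higher instead of 2, and 2 lower instead of 3. Of the filament genes and partners, 2 were called higher instead of 3. Chosen after the data were seen, leaving out each library moved the median log2(level + 1) difference of the radial glia list, 0.44 with all 4, between 0.32 and 0.52; that of the astrocyte identity list, -0.13 with all 4, was -0.081 without SmoM2 replicate 1, -0.12 without SmoM2 replicate 2, -0.036 without WT replicate 1 and -0.22 without WT replicate 2. A replicate block left the differences of Gfap, Vim, Aqp4, Gjb6 and Etnppl at 0.53, 0.67, 0.50, -0.22 and -2.36, as its balance requires; the deviations of same-numbered samples correlated at -0.093 across genes, and with 2 pairs the numbers were not taken to pair samples.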
